A study of Mus musculus with 68 samples.

Results

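The first cell cycle of mouse embryos made by somatic cell nuclear transfer (SCNT) is described here from 6 h to 14 h post activation (hpa). The libraries are those whose sample titles give the NT embryo and a time of 6 h or 14 h, 12 of the 68 libraries of the series, with 6 at each time. Values are TPM (transcripts per 1000000) of each named reference gene. TPM is a share of the RNA in the library and not an amount per embryo. At neither time did the embryos receive a treatment beyond the SCNT procedure, and the titles set the 2 groups apart by time of collection. Oocytes came from BDF1 (B6D2F1) females. Their own chromosomes were removed at metaphase II, and the nucleus of a cumulus cell (CC), a somatic cell that surrounds the oocyte, was injected in their place. The embryos were then activated chemically with strontium and cytochalasin B. The 6 hpa embryos were therefore at the end of that treatment and the 14 hpa embryos had been cultured after it in another medium. The time and this change of culture cannot be told apart here. Each library pooled the RNA of 10 blastomeres, so at these times of about 10 embryos. The labels do not say which libraries share a day or a group of donor females. Cumulus cells themselves, with 3 libraries, and the early and late 2-cell SCNT embryos (E2C and L2C), with 6 libraries each, are used below only as levels beside the one-cell values.

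A one-cell embryo begins with the mRNA that the oocyte stored. Oocytes silence much of this mRNA by shortening its poly(A) tail, and re-extend the tail of chosen mRNAs during maturation and after activation, guided by U-rich cytoplasmic polyadenylation elements near the poly(A) signal. After activation many maternal mRNAs lose their tails and are degraded, and a first weak wave of transcription, called minor genome activation, begins late in the first cell cycle. The enucleated oocyte gives an SCNT embryo the same store, but the genome in it is that of a differentiated cell. The libraries were made by Smart-seq2, which copies RNA through its poly(A) tail, so fewer molecules of an mRNA and a shorter tail on the same molecules cannot be told apart in these values.

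The 3′ ends of mRNAs that changed differed in that element, and a few of them show what was compared. Each line below gives 30 bases of a 3′ untranslated region from GENCODE vM21 on mm10, 5′ to 3′ on the coding strand, ending at a poly(A) signal (AATAAA or ATTAAA). Capitals mark poly(A) signals and the polyadenylation elements TTTTAT and TTTTAAT, written as DNA. The first 7 mRNAs were lower at 14 hpa and carried the element close to the signal, and the next 4 were higher and had none in the last 100 bases. The last pair went the other way, as Prim2 fell without the element and Nudt21 rose with it. These are chosen examples and do not show how common the element was. Most genes that fell had none in the last 100 bases, since 237 of 702 (33.8%) held it, as did 88 of 700 that rose (12.6%).
Bub1b: ctctcctttcactgtgtaTTTTATAATAAA
Fmr1nb: acTTTTATtgtagtttcaaatcaaATTAAA
Arrdc2: ttgttcacTTTTATatATTAAATAAATAAA
Gdf9: tgctgtggTTTTATgtgacggaagAATAAA
Tet3: tctttaaaatattgtgggtgTTTTAATAAA
Obox2: tTTTTATtgttagagtatatgttcATTAAA
Dcp1a: atatgtttgcaaatatatttTTTTAATAAA
Zfp352: tgattcttggtatctttcttttgaAATAAA
Calm2: ttccaagttgtatatttgttttccAATAAA
Nmu: attataaatgtttaatttgttgaaAATAAA
Cdk1: aatttaatgtgcctaatggcacggAATAAA
Prim2: gtcctcttttggattgtttttgctAATAAA
Nudt21: aaagTTTTATttcactgttatttcAATAAA
These windows, each in the last exon, lie at chr2:118641547-118641576 (+) for Bub1b, chrX:68804512-68804541 (+) for Fmr1nb, chr8:70835144-70835173 (-) for Arrdc2, chr11:53437858-53437887 (+) for Gdf9, chr6:83362399-83362428 (-) for Tet3, chr7:15398489-15398518 (+) for Obox2 and chr14:30527001-30527030 (+) for Dcp1a. Those of the mRNAs that were higher lie at chr4:90225645-90225674 (+) for Zfp352, chr17:87433432-87433461 (-) for Calm2, chr5:76333513-76333542 (-) for Nmu and chr10:69335168-69335197 (-) for Cdk1, and the last pair at chr1:33453827-33453856 (-) for Prim2 and chr8:94015512-94015541 (-) for Nudt21. In Tet3, Dcp1a and Bub1b the element and the signal overlap or touch, since TTTTAAT can share its last letters with AATAAA. The windows of Cdk1 and Nudt21 lie past the 3′ end of the gene as deposited, at chr10:69336635 and chr8:94019403. They are thus outside the stretch for which the TPM of these genes was given.

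The 12 libraries varied in depth. The tables hold no read counts, and coverage divided by FPKM, a measure of depth in aligned gigabases under StringTie's formula, ranged from 1.91 to 5.17 at 6 hpa and from 1.90 to 4.26 at 14 hpa. Between 8301 and 9417 genes per library reached 1 TPM at 6 hpa, and between 7438 and 10564 at 14 hpa (two-sided exact permutation test over 924 splits, adjusted p = 0.563). The share of assembled TPM that fell on reference genes was lower at 14 hpa, 63.8 ± 5.59% against 71.8 ± 2.77% (SD, 6 libraries each, exact permutation test, adjusted p = 0.013). With the libraries paired by number, the share was lower at 14 hpa in every pair. Flipping signs within pairs gave an exact p of 0.0313, the smallest that 64 flips can give. It did not pass once adjusted over 3 properties. Beside the sign-flip p-values of the other properties (0.406 and 0.5) it could not have passed, so this says nothing against the difference. The library labelled 14 hpa replicate 1 stood apart, with a share of 53.7%. It had Pearson correlations of 0.831 to 0.905 with the other 14 hpa libraries, where the others reached 0.886 to 0.982 among themselves. A gene can be missed in one library, so a value near 0 in a single library is given but not relied on. The cells carried the marks of an egg, as all 16 egg markers were above 1 TPM on average at both times. Their summed level was 33960 to 44650 TPM at 6 hpa and 26310 to 31850 TPM at 14 hpa. The 25 cumulus and granulosa cell markers summed to 132 to 301 and 33.9 to 248 TPM, against 7049 to 9178 TPM in cumulus cells. Most of the sum in embryos was Serpine2, and 18 of the 25 averaged under 1 TPM at 6 hpa and 19 at 14 hpa.

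In 8 h the RNA of the one-cell SCNT embryo changed widely in both directions. Of 9624 genes with a mean of at least 1 TPM, 911 (9.47%) were higher and 773 (8.03%) were lower at 14 hpa by at least 2-fold with a limma adjusted p under 0.05. The libraries of the 2 times did not overlap for 501 of the genes that rose and 531 of those that fell, while 6.34% of all genes tested were higher and 8.08% lower without overlap whether called or not. Over all genes tested the median log2 fold change was -0.03. Of the 911 genes that rose, 773 (84.9%) averaged at least 1 TPM at 6 hpa, against 93.4% of all genes tested. Of the 773 that fell, 720 still averaged at least 1 TPM at 14 hpa, as did 9398 of the 9624 tested. The genes that fell had a median of 33.2 TPM at 6 hpa, against 5.16 TPM for those that rose and 7.88 TPM for all genes tested. At 14 hpa the medians were 10.18 TPM for those that fell, 17.98 TPM for those that rose and 8.77 TPM for all. The levels at both times enter the call and the filter. The order of these medians and the counts at 1 TPM are therefore partly built in, and are given as descriptions. Of the 138 genes that rose from under 1 TPM, 69 were also under 1 TPM in cumulus cells, as were 273 of all 638 genes tested that averaged under 1 TPM at 6 hpa.

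**Figure D1:**
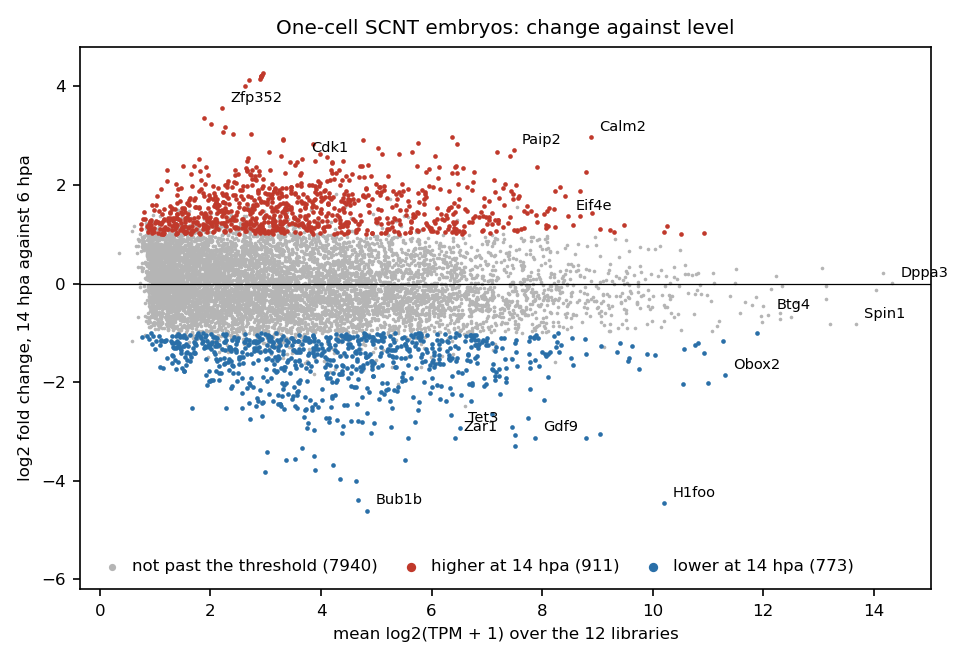
Log2 fold change from 6 to 14 hpa (vertical axis) against the mean log2(TPM + 1) of the 12 libraries (horizontal axis), with 1 point per gene and the 911 higher and 773 lower genes in colour. H1foo combined a high level with one of the largest falls, while Dppa3, Btg4 and Spin1, at the high end, stayed within 2-fold.

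The balance of rises and falls differed between replicates 1 to 3 and replicates 4 to 6. Across all 9624 genes the log2 fold changes of the 2 sets correlated with Pearson's r = 0.716, where genes are not independent replicates. Fitted alone, the sets called 7 genes in opposite directions. Replicates 1 to 3 alone gave 422 rises and 1040 falls, with a median log2 fold change of -0.31 over all genes. Replicates 4 to 6 gave 2042 rises and 523 falls, with a median of 0.24. After quantile normalization the counts were 754 and 734 in the first set and 1266 and 1063 in the second. Rescaling TPM so that the reference genes sum to the same total in each library moved the median of all genes up by 0.13 and gave 1232 higher and 626 lower, so that 66.3% of the calls were rises in place of 54.1%. Leaving out 14 hpa replicate 1 gave 1301 higher and 662 lower, also with 66.3% rises. Changes are therefore read against the median of all genes. Medians of all 18 gene lists described here were lower in replicates 1 to 3 than in replicates 4 to 6.

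The polyadenylation element followed the direction of change over the whole range. Among genes with a 3′ untranslated region of at least 100 bases, 88 of 700 that rose (12.6%) and 237 of 702 that fell (33.8%) held TTTTAT or TTTTAAT in the last 100 bases of the sense strand, against 21.5% of all 8255 such genes tested. When all genes were put in order of their change and cut into 10 bins of equal size, the share went from 32.5% in the bin that fell most to 12.5% in the bin that rose most, without a step in the other direction. Genes that rose also had shorter 3′ untranslated regions, with a median of 560 bases against 1298 for those that fell and 903 for all genes tested. The gap was there at either length: among genes below the median length the element was in 10.4% of those that rose, 39.2% of those that fell and 20.7% of all, and among longer ones in 15.8%, 30.5% and 22.1%. A poly(A) signal was found in 74.6% of the genes that rose and 87.6% of those that fell in the same window, against 82.7% of all. These are descriptions of annotated transcripts, 1 per gene, and the ends used in these embryos were not measured.

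**Figure D2:**
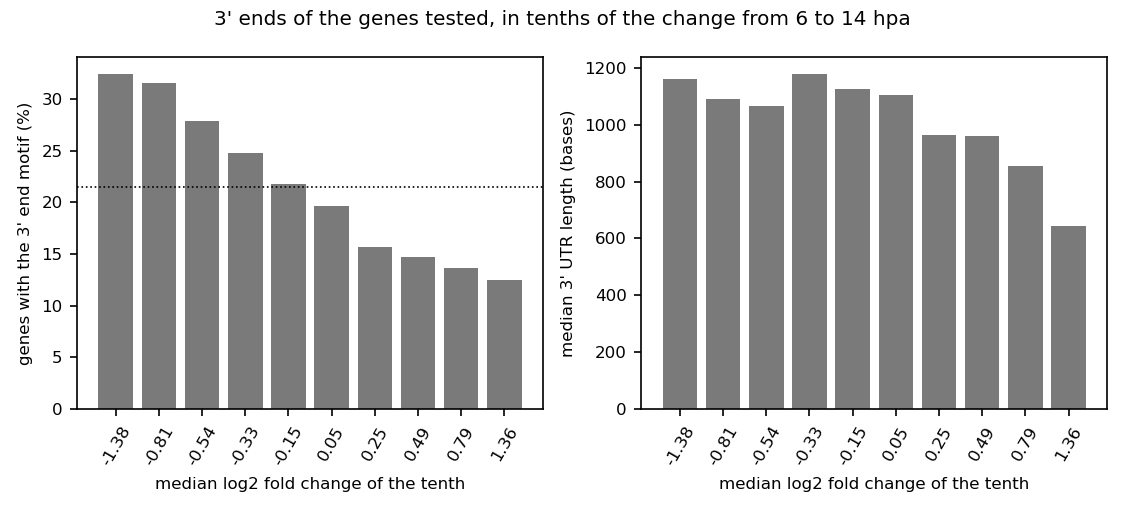
Genes tested with a 3′ untranslated region of at least 100 bases, in 10 bins from the strongest fall to the strongest rise (horizontal axes, median log2 fold change of the bin). Bars give the percent of genes with the polyadenylation element in their last 100 bases (left, dotted line at 21.5% for all) and the median length of the 3′ untranslated region in bases (right). The share fell from 32.5% to 12.5% across the bins.

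The largest falls included maternal mRNAs for chromosomes and cell division. Bub1b, the spindle checkpoint kinase BubR1, was at 107 to 166 TPM at 6 hpa (median 147) and 0.608 to 10.0 TPM at 14 hpa (median 6.22), with no overlap (log2 fold change -4.61 ± 0.40, adjusted p = 2.5e-06). H1foo, the linker histone of the oocyte, was at 2280 to 7456 TPM at 6 hpa (median 6552) and 70.7 to 585 TPM at 14 hpa (median 370.5) and so went from one of the more abundant mRNAs to a moderate one (log2 fold change -4.45 ± 0.51, adjusted p = 2.8e-05). For H1foo all 6 libraries at 14 hpa were below the lowest at 6 hpa, and the 3 libraries of replicates 1 to 3 were the lowest of all. Smc3, a cohesin subunit, was at 56.6 to 191 TPM at 6 hpa (median 104.2) and 1.74 to 7.76 TPM at 14 hpa (median 5.97) (log2 fold change -4.001 ± 0.35, adjusted p = 3.1e-06). Prim2, the large subunit of DNA primase, fell from 51.9 ± 20.7 to 4.77 ± 3.84 TPM and Cep44, a centrosomal protein, from 30.97 ± 13.4 to 1.28 ± 1.03 TPM. The other 7 of the 12 largest falls were Blvra, which reduces biliverdin (from 119.9 ± 33.7 to 5.67 ± 3.57 TPM), Fmr1nb, Smg8, a regulator of nonsense-mediated decay (from 56.1 ± 15.8 to 4.06 ± 3.29 TPM), Taldo1, an enzyme of the pentose phosphate pathway, Tmem59, the R-spondin receptor Lgr4 (from 42.2 ± 20.4 to 2.67 ± 2.03 TPM) and Arrdc2. Of the 11 of these 12 with a long enough 3′ untranslated region, 6 held the polyadenylation element. Of the 8 such among the 12 largest rises named below, 2 did.

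Products of the oocyte itself split into those that fell steeply and those that changed by less than 2-fold. Among 12 zona pellucida and oocyte-secreted genes, 4 fell (33.3%, against 8.03% of all genes tested) and none rose, with a median log2 fold change of -0.61. Gdf9, the growth factor with which the oocyte drives its follicle, was at 255 to 1158 TPM at 6 hpa (median 907) and 12.96 to 272 TPM at 14 hpa (median 118) (log2 fold change -3.13 ± 0.66, adjusted p = 0.00301). Its highest value at 14 hpa, in replicate 6, just passed its lowest at 6 hpa, in replicate 1, and its change was -4.005 in replicates 1 to 3 and -2.25 in replicates 4 to 6. Zp3, the zona protein that sperm meet, was at 35.9 to 121 TPM at 6 hpa (median 115) and 2.07 to 57.6 TPM at 14 hpa (median 26.5) (log2 fold change -2.19 ± 0.62, adjusted p = 0.0174). Oosp1, an oocyte-secreted protein, fell from 3275 ± 889 to 1254 ± 395 TPM and Astl, the ovastacin protease that hardens the zona, from 9.26 ± 3.59 to 2.84 ± 2.19 TPM. After quantile normalization the fall of Oosp1 was just under 2-fold (log2 fold change -0.988) and its call was lost. Oosp3 was at 3351 to 4903 TPM at 6 hpa (median 3562) and 2018 to 2881 TPM at 14 hpa (median 2506), lower in every library at 14 hpa but by less than 2-fold (log2 fold change -0.60 ± 0.13, adjusted p = 0.00407). Of the 16 egg markers 5 fell (31.25%, against 8.03% of all genes tested) and none rose, and the markers that fell were H1foo, Zar1, Gdf9, Zp3 and Oosp1. None of the 14 genes of the subcortical maternal complex and its partners, a protein lattice that the embryo needs for its first divisions, passed the threshold in limma in either direction. None passed with the replicate block either, while 4 had an unadjusted p under 0.05. Over all genes tested 9.47% rose and 8.03% fell, so few calls would be expected among 14 genes. The median of the 14 was -0.42. That median was -0.63 in replicates 1 to 3 and 0.14 in replicates 4 to 6. Zbed3, one of its members, was at 1511 to 2601 TPM at 6 hpa (median 2264) and 1595 to 3967 TPM at 14 hpa (median 2038).

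**Figure D3:**
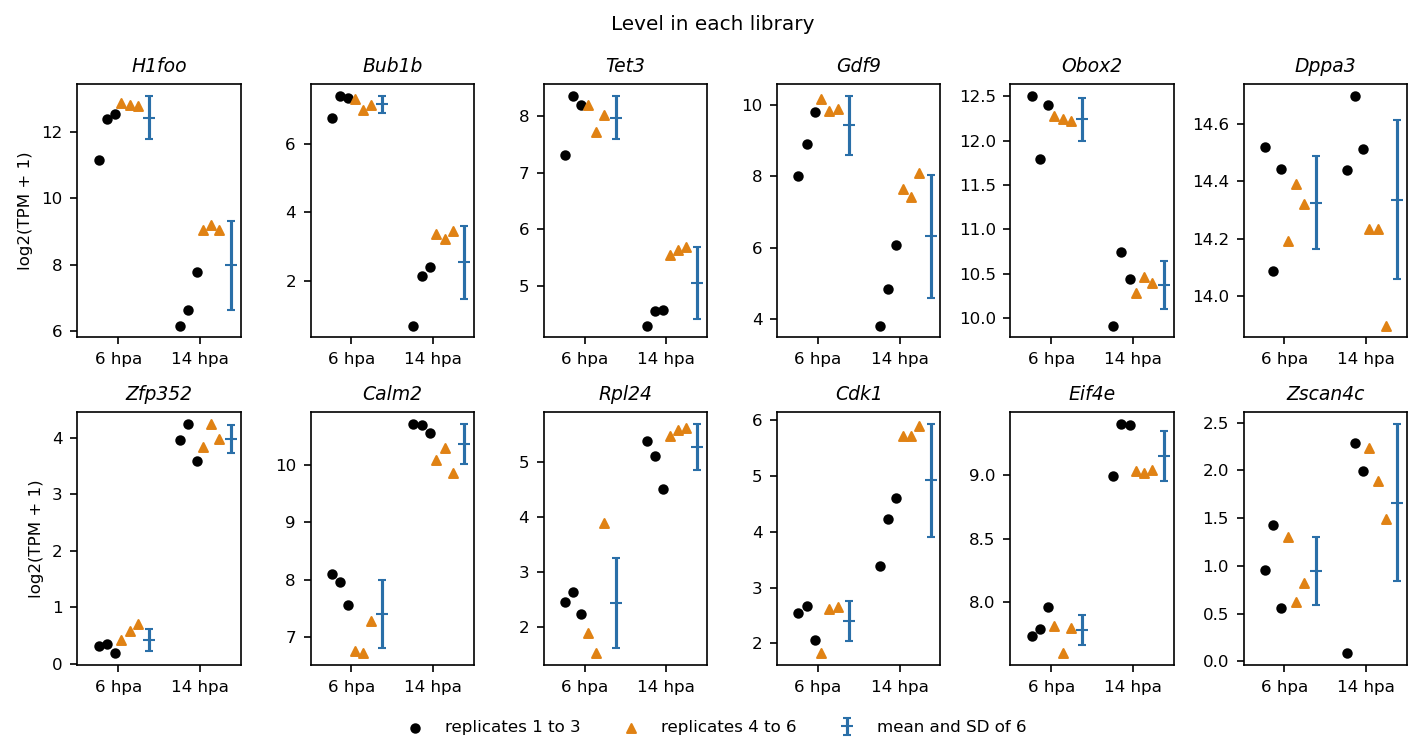
Level of 12 genes in each library as log2(TPM + 1) on the vertical axes, which differ between panels, at 6 and 14 hpa. Circles are replicates 1 to 3, triangles replicates 4 to 6, and bars the mean and SD of 6 libraries. H1foo, Bub1b, Tet3 and Obox2 fell and Zfp352, Calm2, Rpl24, Cdk1 and Eif4e rose without overlap, Gdf9 overlapped in 1 library, Zscan4c overlapped through 1 library at 14 hpa, and Dppa3 overlapped widely.

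Dormant mRNAs are stored by the oocyte with short tails that are extended on maturation. Of 21 such genes 3 fell (14.3%, against 8.03% of all genes tested) and none rose, with a median of -0.50 (-0.33 after quantile normalization). The 3 were Bub1b, Dcp1a, which helps remove the mRNA cap (from 113 ± 16.7 to 36.2 ± 14.8 TPM), and Cpeb4, a protein that binds the polyadenylation element (from 51.8 ± 14.0 to 23.3 ± 3.23 TPM, a fall of less than 2-fold without 6 hpa replicate 3). Spin1, a spindle-associated protein and the most abundant of the list, was at 14302 to 24491 TPM at 6 hpa (median 15452) and 7764 to 12129 TPM at 14 hpa (median 9829.9), lower without overlap but by less than 2-fold (log2 fold change -0.82 ± 0.17, adjusted p = 0.00253). Ccnb1, cyclin B1, was at 1825 to 2989 TPM at 6 hpa (median 2595) and 882 to 2901 TPM at 14 hpa (median 2147) (log2 fold change -0.35 ± 0.26, adjusted p = 0.334). Mos, the kinase that holds the egg at metaphase, was at 2.19 to 19.0 TPM at 6 hpa (median 12.6) and 1.62 to 10.1 TPM at 14 hpa (median 5.96) (log2 fold change -0.88 ± 0.51, adjusted p = 0.224). Plat, the tissue plasminogen activator and a textbook dormant mRNA, was at 17.0 to 46.3 TPM at 6 hpa (median 36.8) and 12.5 to 97.3 TPM at 14 hpa (median 47.1) (log2 fold change 0.25 ± 0.43, adjusted p = 0.706). Its change was -0.52 in replicates 1 to 3 and 1.01 in replicates 4 to 6, so its sign depended on the set. Ccna2, cyclin A2, went from 127 ± 12.6 to 98.9 ± 15.0 TPM (log2 fold change -0.36 ± 0.15, adjusted p = 0.0913).

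The machinery that removes maternal mRNA was measured through its adaptors, deadenylases and nucleases. Of 33 tested genes of deadenylation and decay 1 rose (3.03%) and 2 fell (6.06%), against 9.47% and 8.03% of all genes tested. Their median was -0.31, and with the replicate number as a block 4 fell. Btg4, the adaptor that brings the CCR4-NOT deadenylase to maternal mRNA, was at 4166 to 7114 TPM at 6 hpa (median 5770.1) and 1909.9 to 5201 TPM at 14 hpa (median 4042) (log2 fold change -0.64 ± 0.24, adjusted p = 0.0592). Cnot7, a catalytic subunit of that complex, was at 849.8 to 1513 TPM at 6 hpa (median 967) and 592 to 943 TPM at 14 hpa (median 702) (log2 fold change -0.50 ± 0.18, adjusted p = 0.0509). Its partner Cnot6l was at 57.7 to 78.8 TPM at 6 hpa (median 71.4) and 89.4 to 110.3 TPM at 14 hpa (median 94.3), higher without overlap but by less than 2-fold (log2 fold change 0.51 ± 0.15, adjusted p = 0.019). The gene that rose was Tob1, another adaptor of deadenylation, at 0.699 to 3.42 TPM at 6 hpa (median 1.31) and 3.12 to 31.4 TPM at 14 hpa (median 8.2) (log2 fold change 2.02 ± 0.45, adjusted p = 0.00464). Besides Dcp1a, Xrn2, a nuclear exonuclease, fell from 86.2 ± 13.6 to 43.1 ± 20.6 TPM (log2 fold change -1.17 ± 0.35, adjusted p = 0.024). Without 6 hpa replicate 3 the adjusted p of Xrn2 was 0.0553, and without 14 hpa replicate 1 its change was -0.827, less than 2-fold.

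Factors that mask, package and re-extend mRNA had calls in both directions, at shares not far from those of all genes (9.47% higher and 8.03% lower). Among 19 tested genes of storage 2 rose and 2 fell (10.5% each, 4 fell with the replicate block), with a median of -0.26. Zar1, which binds and stores maternal mRNA, was at 121 to 377 TPM at 6 hpa (median 301) and 9.71 to 62.4 TPM at 14 hpa (median 33.4) (log2 fold change -3.13 ± 0.43, adjusted p = 0.000121). Igf2bp2, an mRNA-binding protein, fell from 40.2 ± 13.2 to 15.4 ± 5.91 TPM (log2 fold change -1.36 ± 0.27, adjusted p = 0.00228). In the other direction, Eif4e1b, the oocyte form of the cap-binding protein, was at 20.8 to 40.6 TPM at 6 hpa (median 28.0) and 57.0 to 214 TPM at 14 hpa (median 119) (log2 fold change 1.89 ± 0.32, adjusted p = 0.000701). Ybx2, the germ cell Y-box protein that coats mRNA, was at 4.84 to 8.08 TPM at 6 hpa (median 5.59) and 6.72 to 30.8 TPM at 14 hpa (median 20.8) (log2 fold change 1.44 ± 0.33, adjusted p = 0.00548). Every library at 14 hpa was above every library at 6 hpa for Eif4e1b, while Ybx2 overlapped in replicate 2. Lsm14a, an abundant protein of repressed mRNA particles, was at 320 to 592 TPM at 6 hpa (median 372) and 257 to 482 TPM at 14 hpa (median 313) (log2 fold change -0.26 ± 0.21, adjusted p = 0.398). Of 23 tested genes of the polyadenylation machinery, Nudt21, a cleavage factor, rose from 3.88 ± 2.54 to 10.5 ± 4.47 TPM (log2 fold change 1.33 ± 0.40, adjusted p = 0.0248), and Papd7, a non-canonical poly(A) polymerase, and Cpeb4 fell (2 rose with the replicate block). The median of these 23 was -0.21. Papd7 went from 171 ± 20.2 to 79.9 ± 24.2 TPM with no overlap (log2 fold change -1.14 ± 0.20, adjusted p = 0.000901). On rescaled TPM none of the 23 was called as a fall, and Papd7 also lost its call after quantile normalization. Nudt21 lost its call in 4 of the 12 fits that left out 1 library (6 hpa replicates 1 and 2 and 14 hpa replicates 5 and 6), with an adjusted p of up to 0.0553.

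Genes that write, read and erase marks on chromatin included a few steep falls. Tet3, the dioxygenase that oxidizes 5-methylcytosine in the zygote, was at 159 to 328 TPM at 6 hpa (median 277) and 18.6 to 50.5 TPM at 14 hpa (median 34.3) (log2 fold change -2.93 ± 0.28, adjusted p = 7.52e-06), with all 14 hpa libraries far below all 6 hpa libraries. Of 18 tested genes of DNA methylation and zygotic chromatin 2 rose and 2 fell (11.1% each, against 9.47% and 8.03% of all genes tested). The falls were Tet3 and H1foo, and the median was 0.08. H3f3a, 1 of the genes for the replacement histone H3.3, rose from 123 ± 22.2 to 355 ± 111 TPM with no overlap (log2 fold change 1.47 ± 0.22, adjusted p = 0.00027). H3f3b, the other and far more abundant one, was at 4003 to 5806 TPM at 6 hpa (median 4514) and 3069 to 6608 TPM at 14 hpa (median 4247) (log2 fold change -0.10 ± 0.19, adjusted p = 0.718). Chaf1b, a subunit of the chromatin assembly factor CAF-1, rose from 1.91 ± 0.503 to 7.94 ± 4.16 TPM (log2 fold change 1.38 ± 0.44, adjusted p = 0.0332) but lost its call in 9 of the 12 fits that left out 1 library, with an adjusted p of up to 0.0736, and kept it only without 6 hpa replicates 1 and 5 and 14 hpa replicate 1. Dppa3, which guards the maternal genome against demethylation, was the most abundant of the list at 17396 to 23496 TPM at 6 hpa (median 20961) and 15249 to 26569.5 TPM at 14 hpa (median 20744) and did not pass the test (log2 fold change 0.01 ± 0.14, adjusted p = 0.965).

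Methylation of lysine 9 of histone H3, the mark that the study followed in these embryos, has writers, erasers and readers. Of 19 tested, 3 fell (15.8%, against 8.03% of all genes tested) and none rose. Without 14 hpa replicate 1, 2 rose and 3 fell. These genes had a median transcript length of 4327 bases, and with the trend on transcript length removed 1 rose and 2 fell. The median log2 fold change was -0.19, and 0.07 without 14 hpa replicate 1. It was -0.59 in replicates 1 to 3 and 0.20 in replicates 4 to 6. Trim28, the corepressor that brings H3K9 methylation to retroelements, was at 26.9 to 55.9 TPM at 6 hpa (median 41.2) and 0.107 to 9.87 TPM at 14 hpa (median 5.34) (log2 fold change -2.98 ± 0.46, adjusted p = 0.000314). Mphosph8, the chromodomain reader of the HUSH complex, was at 459.7 to 512 TPM at 6 hpa (median 467) and 152 to 233 TPM at 14 hpa (median 195) with little spread at either time (log2 fold change -1.29 ± 0.13, adjusted p = 1.37e-05). Atrx, a remodeller of H3.3 at heterochromatin, fell from 132 ± 68.7 to 51.5 ± 7.37 TPM (log2 fold change -1.19 ± 0.30, adjusted p = 0.00928). Its fall was just under 2-fold without 6 hpa replicate 2, and its call was also lost with the trend on transcript length removed. Suv39h2, the H3K9 methyltransferase of the early embryo, was at 34.0 to 71.5 TPM at 6 hpa (median 48.8) and 50.7 to 59.998 TPM at 14 hpa (median 54.2) (log2 fold change 0.16 ± 0.21, adjusted p = 0.621). Its 3 highest values at 6 hpa came from replicates 1 to 3 and its change was -0.35 in replicates 1 to 3 and 0.66 in replicates 4 to 6, so the sets had opposite signs. Kdm4b, an H3K9 demethylase, stayed below 1 TPM in all 12 libraries (highest 0.562 at 6 hpa and 0.122 at 14 hpa, exact permutation test of log2(TPM + 1), two-sided p = 0.249, or 0.571 when adjusted over 3 genes).

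The 12 largest rises named here were of mRNAs for quite different functions. They were taken from genes averaging at least 5 TPM without overlap, leaving out unnamed gene models, some of which rose more. Zfp352, a zinc finger gene of the early embryo, was at 0.135 to 0.633 TPM at 6 hpa (median 0.301) and 11.1 to 18.003 TPM at 14 hpa (median 14.7) (log2 fold change 3.56 ± 0.22, adjusted p = 2.38e-07). Calm2, which encodes calmodulin, the calcium sensor of the activated egg, was at 103.7 to 275 TPM at 6 hpa (median 171) and 925 to 1691 TPM at 14 hpa (median 1386) (log2 fold change 2.98 ± 0.26, adjusted p = 2.5e-06). Paip2, which restrains the poly(A)-binding protein, was at 54.3 to 81.2 TPM at 6 hpa (median 74.7) and 355 to 536 TPM at 14 hpa (median 471) (log2 fold change 2.71 ± 0.16, adjusted p = 2.38e-07). In all 3 the lowest library at 14 hpa was more than 3 times the highest at 6 hpa. Fcf1, a processing factor of ribosomal RNA, rose from 35.0 ± 16.6 to 237 ± 42.3 TPM. Rpl24, a protein of the large ribosomal subunit, rose from 5.3 ± 4.34 to 39.0 ± 9.92 TPM and Mrps10, of the mitochondrial ribosome, from 1.86 ± 2.25 to 20.6 ± 10.3 TPM. Nmu, the neuropeptide neuromedin U, rose from 2.78 ± 1.27 to 26.6 ± 5.72 TPM and Cyb5a, cytochrome b5, from 29.2 ± 7.27 to 249.6 ± 90.2 TPM. The others of the 12 were Fam162a, Ccdc58, the vault RNA Vaultrc5 and the pseudogene Speer5-ps1. Calm2, Paip2, Cyb5a, Fam162a, Fcf1, Rpl24, Mrps10 and Ccdc58 were also among the mRNAs of cumulus cells. Their means there ran from 110 ± 20.8 TPM for Ccdc58 to 2422 ± 411 TPM for Calm2. Nmu averaged 10.2 TPM and Vaultrc5 0.332 TPM in cumulus cells. Zfp352 was at 0 in all 3 cumulus libraries and Speer5-ps1 at 0.0172 ± 0.0298 TPM. In all, 642 of the 911 genes that rose (70.5%) averaged at least 1 TPM in cumulus cells, as did 637 of the 773 that fell (82.4%) and 75.2% of all genes tested.

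Genes of the ribosome and the respiratory chain, whose transcripts are short, rose more often than they fell. Over all genes tested, those that rose had shorter transcripts (median 1745 bases) than those that fell (3346 bases) or all (2683 bases). Removing the trend on transcript length kept 713 of the 911 rises and 622 of the 773 falls, in a fit of the 9269 genes with a known length. Of 82 tested cytosolic ribosomal protein genes 27 rose (32.9%, against 9.47% of all genes tested) and none fell (33 rose with the replicate block). Their median was 0.69 in all libraries, 0.49 in replicates 1 to 3, 0.92 in replicates 4 to 6 and 0.72 after quantile normalization. These genes had a median transcript length of 831.5 bases, and with the trend on length removed 18 rose and 3 fell, with a median of 0.30. The summed level of the 84 listed genes was 4632 to 6325 TPM at 6 hpa and 6211 to 7818 TPM at 14 hpa, against 38220 to 46530 TPM in cumulus cells. Rps24 was at 18.9 to 48.6 TPM at 6 hpa (median 31.1) and 91.0 to 160.5 TPM at 14 hpa (median 131) (log2 fold change 1.98 ± 0.24, adjusted p = 4.97e-05). Rpl10a rose from 1.75 ± 1.18 to 11.6 ± 3.97 TPM and Rpl36a from 5.03 ± 1.58 to 17.5 ± 2.98 TPM, both without overlap. The most abundant members behaved otherwise, with Rps27l at 2358 to 2878 TPM at 6 hpa (median 2665) and 2156 to 5045 TPM at 14 hpa (median 3099) (log2 fold change 0.30 ± 0.18, adjusted p = 0.243) and Rplp2 at 143 to 418 TPM at 6 hpa (median 307) and 133 to 419.8 TPM at 14 hpa (median 256) (log2 fold change -0.27 ± 0.34, adjusted p = 0.589). Many ribosomal protein genes have processed pseudogenes that can share their reads, and these values are uncertain to that extent.

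Of 76 tested nuclear genes of the respiratory chain 18 rose and 2 fell (23.7% and 2.63%, against 9.47% and 8.03% of all genes tested), with a median of 0.56. Their median transcript length was 758 bases over the 75 with a known length, and with the trend on length removed 5 rose and 4 fell, with a median of 0.20, so most of these rises were not called in that fit. Atp5j2, a subunit of ATP synthase, was at 22.1 to 59.5 TPM at 6 hpa (median 39.1) and 123 to 211 TPM at 14 hpa (median 195) (log2 fold change 2.25 ± 0.24, adjusted p = 1.58e-05). Ndufa5 of complex I rose from 11.2 ± 2.8 to 42.0 ± 11.6 TPM, and Uqcr10 and Uqcrh of complex III from 49.3 ± 13.4 to 124 ± 18.2 TPM and from 97.1 ± 17.1 to 229.8 ± 49.8 TPM. All 4 were without overlap, but Uqcr10 and Uqcrh lost the call once the trend on transcript length was removed. Cox5a of complex IV was higher in every library but by less than 2-fold (log2 fold change 0.90 ± 0.16, adjusted p = 0.00104). The 2 that fell were Ndufb8 (from 158 ± 36.3 to 76.1 ± 17.0 TPM) and Uqcrc2 (from 181 ± 51.2 to 89.3 ± 54.0 TPM). Neither passed without 14 hpa replicate 1, where their changes were -0.927 and -0.918. Ndufb8 was also under 2-fold without 6 hpa replicate 5, and Uqcrc2 kept its call only without 6 hpa replicate 1 or 14 hpa replicate 4, 5 or 6 (adjusted p up to 0.0816 in the other fits).

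Proteasome subunits and translation initiation factors had different balances of rises and falls in the 2 sets of replicates. Of 33 tested proteasome subunits 4 rose (12.1%, against 9.47% of all genes tested) and none fell (2 fell with the replicate block). Their median was -0.07, which became 0.10 on rescaled TPM. Replicates 1 to 3 alone gave 2 rises and 6 falls (median -0.71) and replicates 4 to 6 alone 9 rises and no falls (median 0.56). With the trend on transcript length removed 5 rose and 5 fell. Psmd10 rose from 30.4 ± 4.4 to 116 ± 38.5 TPM (log2 fold change 1.83 ± 0.25, adjusted p = 0.000104), Psmb7 from 11.6 ± 4.85 to 68.3 ± 35.1 TPM and Psmc5 from 67.5 ± 16.8 to 169.7 ± 71.3 TPM. Psmc2 rose from 23.2 ± 6.42 to 74.7 ± 28.1 TPM, by 0.75 in replicates 1 to 3 and 2.45 in replicates 4 to 6, a difference that passed the test of interaction (adjusted p = 0.0146) but not after quantile normalization. Psma7, the most abundant subunit, went from 2058 ± 312 to 1156 ± 506 TPM (log2 fold change -0.95 ± 0.27, adjusted p = 0.0185), just under 2-fold, and passed 2-fold when 6 hpa replicate 1 or 14 hpa replicate 4, 5 or 6 was left out. Of 50 translation initiation factors 9 rose and 6 fell (18% and 12%, against 9.47% and 8.03% of all genes tested). Their median was 0.24. Replicates 1 to 3 alone gave 4 rises and 10 falls, and replicates 4 to 6 alone 16 and 2. Eif4e, the cap-binding protein, was at 193 to 249 TPM at 6 hpa (median 221) and 508 to 676 TPM at 14 hpa (median 525) (log2 fold change 1.36 ± 0.13, adjusted p = 7.81e-06). Eif1ax, of start codon selection, rose from 43.5 ± 4.21 to 194 ± 73.9 TPM (log2 fold change 2.02 ± 0.26, adjusted p = 6.83e-05). Eif5b, which joins the ribosomal subunits, was at 218 to 259.9 TPM at 6 hpa (median 247) and 89.1 to 109 TPM at 14 hpa (median 97.1) (log2 fold change -1.31 ± 0.13, adjusted p = 7.52e-06). Eif2b1, a subunit of the exchange factor of eIF2, fell from 1302 ± 264 to 511 ± 244 TPM (log2 fold change -1.51 ± 0.33, adjusted p = 0.00397). Eif4e and Eif5b thus crossed over, from a similar level at 6 hpa to levels at 14 hpa with Eif4e the higher in every library.

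**Figure D4:**
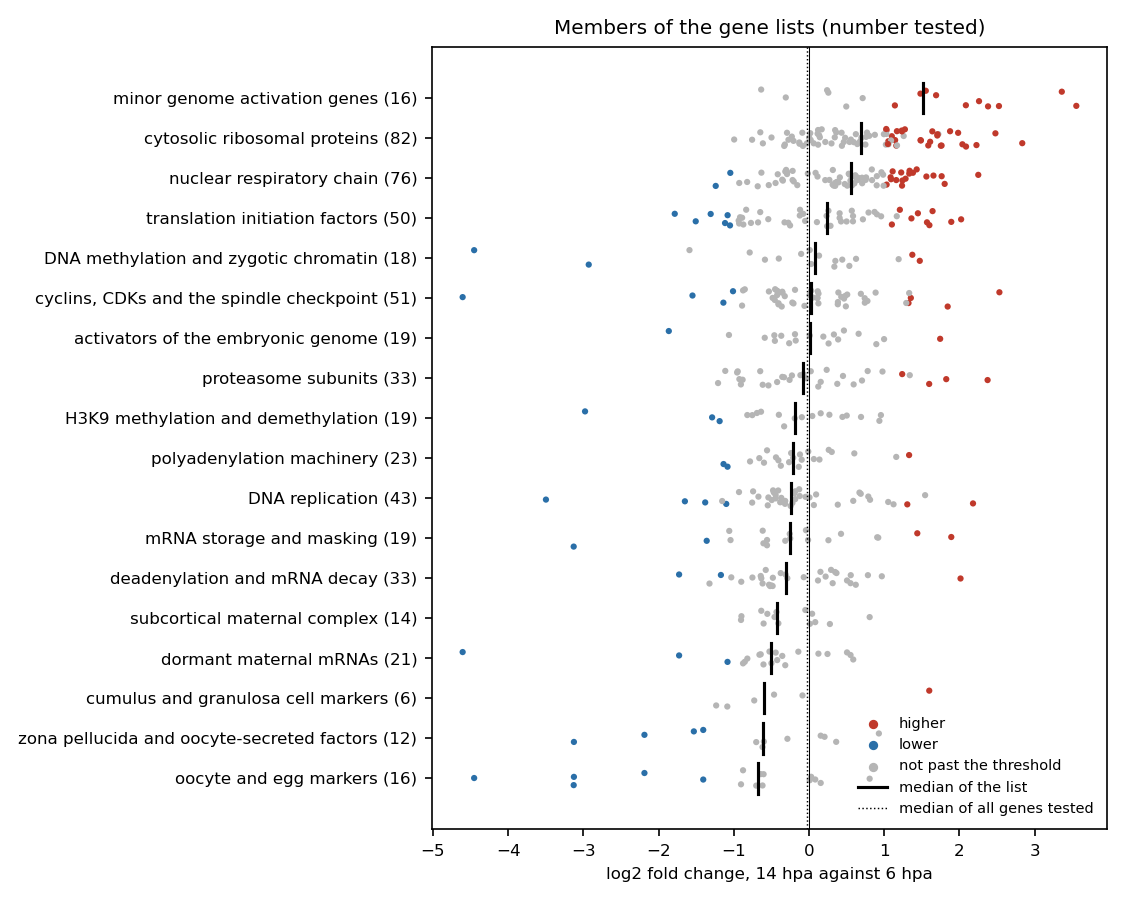
Log2 fold change from 6 to 14 hpa (horizontal axis) of the tested members of 18 gene lists (rows, number tested in brackets), with 1 point per gene, coloured where past the threshold. Black bars are list medians and the dotted line the median of all genes tested, -0.03. The median of ribosomal proteins was 0.69 and that of egg markers -0.67, and the list of minor genome activation shows only the 16 of 30 genes that passed the filter, many through their 14 hpa level.

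Regulators of the cell cycle passed the threshold at a share near that of all genes. Of 51 tested cyclins, cyclin-dependent kinases and spindle checkpoint genes 4 rose and 4 fell (7.84% each), with a median of 0.03, or -0.48 in replicates 1 to 3 and 0.28 in replicates 4 to 6. Cdk1, the kinase of mitosis, was at 2.53 to 5.36 TPM at 6 hpa (median 4.99) and 9.49 to 58.4 TPM at 14 hpa (median 37.4) (log2 fold change 2.53 ± 0.40, adjusted p = 0.00038). Its rise was 1.65 in replicates 1 to 3 and 3.41 in replicates 4 to 6, and the libraries of the 2 times did not overlap. Ttk, the checkpoint kinase MPS1, was at 17.98 to 45.7 TPM at 6 hpa (median 25.9) and 87.0 to 108 TPM at 14 hpa (median 103.6) (log2 fold change 1.85 ± 0.21, adjusted p = 2.26e-05), so it rose while its checkpoint partner Bub1b fell. Cdc25b, the phosphatase that activates CDK1, rose from 1.58 ± 0.704 to 5.95 ± 3.14 TPM (log2 fold change 1.35 ± 0.33, adjusted p = 0.00815). Cdk2, the S phase kinase, rose from 0.949 ± 0.734 to 4.64 ± 3.15 TPM (log2 fold change 1.32 ± 0.47, adjusted p = 0.0494) but kept its call only in the 3 of 12 fits without 6 hpa replicate 6 or 14 hpa replicate 1 or 2, with an adjusted p of up to 0.102 in the other fits that left out 1 library. Those that fell beside Bub1b were Aurkc, the germ cell Aurora kinase (from 433 ± 166 to 179 ± 123 TPM), Espl1, separase (from 7.46 ± 2.06 to 3.37 ± 2.41 TPM), and Sgol2a, shugoshin, which protects cohesin (from 39.1 ± 9.32 to 19.5 ± 6.67 TPM). Each of these calls could be lost by leaving out 1 library. Aurkc lost its call without any of 6 hpa replicates 3 to 6 or 14 hpa replicates 2 and 3 (adjusted p up to 0.0788). Espl1 kept it only without 6 hpa replicate 1 or 14 hpa replicate 4, 5 or 6 (adjusted p up to 0.0891 in the other fits). Sgol2a lost it without 6 hpa replicate 1, 2 or 3 or 14 hpa replicate 1, with a log2 fold change of -0.809 without the last. Pttg1, securin, the most abundant of the list, was at 8262 to 10630.4 TPM at 6 hpa (median 9356) and 5062 to 20199 TPM at 14 hpa (median 7651) (log2 fold change -0.06 ± 0.26, adjusted p = 0.889).

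Of 43 tested DNA replication genes 2 rose (4.65%) and 4 fell (9.3%), against 9.47% and 8.03% of all genes tested. With the replicate block 4 rose and 5 fell, and the median was -0.24. Gins4, of the replicative helicase, was at 11.6 to 29.8 TPM at 6 hpa (median 14.6) and 38.7 to 131 TPM at 14 hpa (median 95.6) (log2 fold change 2.18 ± 0.35, adjusted p = 0.000377). Rpa2, which binds single-stranded DNA, rose from 4.96 ± 2.03 to 15.5 ± 9.81 TPM (log2 fold change 1.31 ± 0.44, adjusted p = 0.0389), but kept its call only without 6 hpa replicate 5 or 14 hpa replicate 1 or 2 (adjusted p up to 0.084 in the other fits that left out 1 library). Besides Prim2, the falls were Orc5 of the origin recognition complex (from 518 ± 113 to 223 ± 101 TPM), Mcm2 of the helicase (from 122 ± 48.6 to 42.2 ± 26.6 TPM) and Cdc7, the kinase that fires origins (from 31.2 ± 6.82 to 15.5 ± 8.13 TPM). Mcm2 was at 39.3 to 166 TPM at 6 hpa (median 128) and 14.7 to 70.3 TPM at 14 hpa (median 43.1) and its overlap came from 6 hpa replicate 1 alone (log2 fold change -1.65 ± 0.46, adjusted p = 0.0162). Cdc7 changed by less than 2-fold or missed the test without 14 hpa replicate 1, 2 or 3. Gmnn, geminin, which blocks a second round of licensing and is the most abundant of the list, was at 1043 to 1327 TPM at 6 hpa (median 1277) and 1039 to 1333 TPM at 14 hpa (median 1178) (log2 fold change -0.05 ± 0.12, adjusted p = 0.806).

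Maternal transcription factors tied to genome activation showed 1 rise and 1 fall among 19 tested (5.26% each, against 9.47% and 8.03% of all genes). Their median was 0.01. Obox2, an oocyte homeobox gene, was at 3555 to 5799.5 TPM at 6 hpa (median 4897) and 966 to 1714 TPM at 14 hpa (median 1367), a fall of the same size in both sets (log2 fold change -1.86 ± 0.16, adjusted p = 1.85e-06). Obox5 of the same family was at 3154 to 4727 TPM at 6 hpa (median 4204) and 2710.2 to 4026 TPM at 14 hpa (median 3438) (log2 fold change -0.26 ± 0.13, adjusted p = 0.166). Obox genes are near-identical copies that can share reads, so the split of values among them is uncertain. Dppa4, an activator of 2-cell genes, rose from 1.95 ± 1.22 to 10.5 ± 7.06 TPM (log2 fold change 1.74 ± 0.50, adjusted p = 0.0201), with most of the rise in replicates 4 to 6 (0.67 in replicates 1 to 3 and 2.81 in replicates 4 to 6), and its adjusted p was 0.0503 without 6 hpa replicate 4.

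Genes of minor genome activation are off or low in the egg, so the filter on low values chose among them partly by their rise. Of 31 listed genes 30 are in the tables, of which 24 averaged under 1 TPM at 6 hpa and 12 at 14 hpa. The filter passed 16, many of them only through their 14 hpa level, and 10 of these rose (62.5%) and none fell. Over all genes tested 9.47% rose, but the filter raised the share of this list, so the shares cannot be compared. Zfp352 was the largest rise among them. Usp17lc, a deubiquitinase gene of the 2-cell embryo, was at 0 to 0.436 TPM at 6 hpa (median 0.0735) and 1.04 to 7.56 TPM at 14 hpa (median 4.31) (log2 fold change 2.09 ± 0.34, adjusted p = 0.000483). Its lowest library at 14 hpa was above its highest at 6 hpa. Arg2, mitochondrial arginase, was at 17.8 to 45.6 TPM at 6 hpa (median 25.3) and 36.3 to 346 TPM at 14 hpa (median 178) (log2 fold change 2.26 ± 0.51, adjusted p = 0.00471), and the rise was 1.48 in replicates 1 to 3 and 3.04 in replicates 4 to 6. Gm4027 rose from 0.478 ± 0.361 to 8.37 ± 4.52 TPM and BB287469 from 0.503 ± 0.584 to 7.14 ± 3.64 TPM, and as the first lies within the second on chromosome 12 the pair can share reads. Tcstv1 was abundant and went from 482 ± 120.5 to 322 ± 116 TPM (log2 fold change -0.64 ± 0.27, adjusted p = 0.102).

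The best known genes of the 2-cell programme stayed low. Zscan4c was at 0.472 to 1.69 TPM at 6 hpa (median 0.855) and 0.0586 to 3.88 TPM at 14 hpa (median 2.85) (log2 fold change 0.71 ± 0.36, adjusted p = 0.159). In 5 of the 6 libraries at 14 hpa it was above every library at 6 hpa, and without 14 hpa replicate 1, at 0.0586 TPM, its change was 1.03 with an adjusted p of 0.00581, past the threshold. Zscan4d was at 0.889 to 4.48 TPM at 6 hpa (median 1.68) and 0.0739 to 8.42 TPM at 14 hpa (median 4.34) (log2 fold change 0.50 ± 0.50, adjusted p = 0.498), with changes of -0.32 in replicates 1 to 3 and 1.31 in replicates 4 to 6. Dux, the factor that activates many 2-cell genes, was at 0 to 2.07 TPM at 6 hpa (median 0.19) and 0 to 0.375 TPM at 14 hpa (median 0.175), a difference of -0.29 in mean log2(TPM + 1) (exact permutation test, two-sided p = 0.381, or 0.571 when adjusted over the same 3 genes). Its highest value, 2.07 TPM, was in 6 hpa replicate 4. Usp17lb was at 0.184 to 0.836 TPM at 6 hpa (median 0.481) and 0.113 to 1.24 TPM at 14 hpa (median 0.431) (difference -0.01, exact p = 0.957 before and after adjustment), unlike its relative Usp17lc. Copies of Zscan4, Dux and Usp17l are near-identical, so their single values are uncertain.

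Multicopy genes on chromosome 10 also rose steeply, some of them by more than Zfp352 with its log2 fold change of 3.56. They were singled out here after their values were seen. A group of 7 neighbours including Gm4340 and Gm6763, within chr10:104142987-104196522, averaged 0.158 to 0.866 TPM at 6 hpa and 11.9 to 34.1 TPM at 14 hpa. All 7 rose with log2 fold changes of 3.36 to 4.28. Another 6 including Gm4301, within chr10:100335676-100382560, averaged 0.346 to 0.979 TPM at 6 hpa and 11.8 to 26.9 TPM at 14 hpa, with log2 fold changes of 3.02 to 4.12. Gm4301 itself was at 0 to 1.18 TPM at 6 hpa (median 0.634) and 18.1 to 38.1 TPM at 14 hpa (median 25.6). The highest value of any of the 13 at 6 hpa was 2.25 TPM and the lowest at 14 hpa 5.19 TPM. In cumulus cells none of them exceeded 0.0919 TPM. The groups parted later, since the first averaged 35.0 to 117 TPM at L2C and the second 5.81 to 13.3 TPM. Each group consists of near-identical or overlapping copies, so its members are not independent observations.

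Markers of the donor cell type were few. Of 25 cumulus and granulosa cell markers 6 passed the filter, of which 1 rose (16.7%, against 9.47% of all genes tested) and none fell (2 fell with the replicate block). Their median was -0.60. Vim, vimentin, was at 0 to 0.351 TPM at 6 hpa (median 0.0904) and 0 to 7.43 TPM at 14 hpa (median 2.37) (log2 fold change 1.60 ± 0.41, adjusted p = 0.0102), far under its 523 ± 26.8 TPM in cumulus cells. Serpine2, a protease inhibitor abundant in cumulus cells, was at 113 to 278 TPM at 6 hpa (median 243) and 28.1 to 229 TPM at 14 hpa (median 114) (log2 fold change -1.23 ± 0.44, adjusted p = 0.054), and passed with the replicate block (adjusted p = 0.00606) and when 6 hpa replicate 1 or 14 hpa replicate 4, 5 or 6 was left out. At 14 hpa 4 of the 25 markers were at 0 in all libraries. The part of RNA carried over from cumulus cells in the changes above was not tested.

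Set beside the 2-cell stages, the one-cell changes took several courses. H1foo was at 338 ± 235 TPM at 14 hpa, 401 ± 223 at E2C and 67.5 ± 36.0 at L2C. Obox2 was at 1345 ± 243, 578 ± 297 and 116 ± 43.9 TPM. Bub1b was at 5.93 ± 3.75, 5.36 ± 1.11 and 14.2 ± 2.77 TPM, so its low level at 14 hpa was also that of E2C. Other large falls were followed by higher levels at L2C, where Tmem59 was at 179 ± 69.9 TPM (160.7 at 6 hpa), Lgr4 at 57.9 ± 58.3 TPM (42.2 at 6 hpa) and Taldo1 at 34.5 ± 20.2 TPM (37.5 at 6 hpa). Among the genes that rose, Zfp352 went from 15.0 ± 2.68 TPM at 14 hpa to 59.3 ± 18.8 and 95.2 ± 53.02 TPM. Calm2 was at 1356 ± 316, 1225 ± 767 and 5439 ± 1931 TPM. Fcf1 was at 237 ± 42.3, 81.5 ± 21.8 and 889 ± 399 TPM, so Fcf1 was lower at E2C than on either side of it. Nmu was at 26.6 ± 5.72 TPM at 14 hpa and 8.71 ± 2.58 and 9.45 ± 7.42 TPM at E2C and L2C. Usp17lb, below 1 TPM on average at both one-cell times, was at 114 ± 113 TPM at L2C, with a spread as large as its mean. These later levels are given as a description and were not tested.

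**Figure D5:**
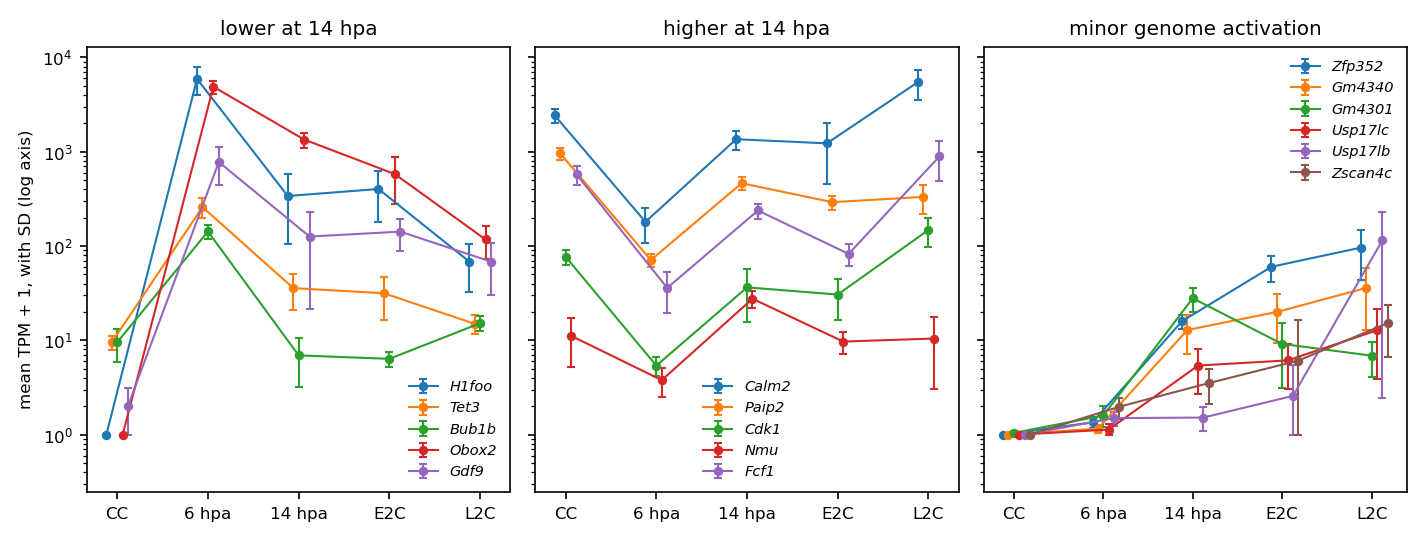
Mean TPM + 1 on a log axis, with the SD over libraries (lower bars end at a mean of 0), in cumulus cells (CC, 3 libraries) and in SCNT embryos at 6 hpa, 14 hpa, E2C and L2C (6 libraries each). The 5 genes lower at 14 hpa (left) were still below their 6 hpa level at L2C, genes higher at 14 hpa (middle) took different courses afterwards, and in the right panel Zfp352, Gm4340, Gm4301 and Usp17lc rose by 14 hpa while Usp17lb rose at L2C.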

How the data were processed

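The members and the gene lists were chosen with earlier results of these data known. Per the submitters' processing notes and the study's methods, the authors used cutadapt 1.16 for trimming, HISAT2 for alignment to mm10 and StringTie for assembly. They deposited 1 gene table per library with coverage, FPKM and TPM. The deposited TPM column holds both the loci assembled in that library, which sum to 1000000, and 24421 reference symbols, and was treated as a score on the TPM scale. The deposited coverage signal and FPKM were used only as their ratio, in gigabases. Since the values are not counts, limma took the place of the count test in the study's methods.

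TPM was summed per symbol. Genes averaging 1 TPM or more across the 12 libraries entered a fit of log2(TPM + 1) by limma 3.58.1 (lmFit, and eBayes with a trend) in R 4.3.3. Calls needed a 2-fold change and a p under 0.05 after Benjamini-Hochberg adjustment over all genes tested. A fold change on this scale understates that of low genes. In the text TPM values carry the SD over libraries and log2 fold changes the SE. For library properties and 3 genes below the filter, exact permutation tests (two-sided) were used. On simulated data with 9624 genes, 70% of genes shifted by 1.5 and 92% of those shifted by 2.5 (log2) were called, with 11 false calls of 173. The simulated noise was independent for each gene and library and held no effect shared by the genes of a library. The share of false calls therefore need not hold for the real libraries.

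Alternatives changed the pseudocount, the filter, the scaling, the libraries in the fit, the replicate block or set, or took out a trend on transcript length or GC. Genes named are the 12 largest rises and falls without overlap and with a mean TPM of at least 5, leaving out unnamed gene models, then up to 4 called members per direction and the 2 highest members of each of 18 lists, and 18 single genes. Not every gene that the rule allows is named. The libraries share replicate numbers across the times, but the labels do not say that these numbers pair embryos. The main fit therefore had no pairing, and the replicate number entered as a block only in alternatives. The deviations of same-numbered libraries correlated at 0.155 to 0.393 over genes in all 6 pairs. Within each set of 3 numbers the correlations were -0.044 to 0.209. The labels' protocol states 3 replicates per stage while 6 are given here, and nothing says that the libraries came from separate collections, so p-values measure the spread between libraries. Transcripts were those of GENCODE vM21, 1 per symbol, which matched 95.7% of the symbols. Other software was scipy 1.17.1, pandas 2.3.3 and matplotlib 3.10.9 under Python 3.11.15.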

Additional observations from a re-analysis of the deposited data

Results flagged for a closer look

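Among 224 groups of 6 libraries (each named gene and each of 3 library properties, at each time), 19 held a library whose gap to the others passed Dixon's criterion, which chance gives in about 1 of 20 groups, and many of them are the same libraries. At 6 hpa replicate 1 was the lowest for H1foo at 2280 TPM, Fmr1nb at 33.4, Zbed3 at 1510, Plat at 17, Mcm2 at 39.3 and Serpine2 at 113 TPM. At 6 hpa replicate 2 was the highest for Igf2bp2 at 65.8 TPM and the lowest for Obox5 at 3150 and Eif5b at 218 TPM, and replicate 6 was the highest for Rpl10a at 4.1 TPM. At 14 hpa replicate 1 was the lowest for Smc3 at 1.74 TPM, Tmem59 at 0, Cyb5a at 87.3, Zscan4c at 0.0586, Trim28 at 0.107, Chaf1b at 0.568, Sgol2a at 8.68 and Cox5a at 625 TPM, and replicate 3 was the lowest for Ttk at 87 TPM.

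The change from 6 to 14 hpa differed between replicates 4 to 6 and replicates 1 to 3 in 12 genes by the limma test of interaction (adjusted p under 0.05). It was more positive in replicates 4 to 6 by 1.69 on the log2 scale for Psmc2, 3.78 for Eps8, 3.14 for Ppm1b, 2.84 for Ecsit, 1.99 for Scfd1, 4.04 for Gadd45g, 2.16 for Enpp5, 1.65 for Cox4i1, 3.7 for Dnajc30, 2.39 for Pdcd2 and 2.84 for Ccdc66, and the difference was -3.04 for Hacd1. After quantile normalization 4 of them, Eps8, Ppm1b, Gadd45g and Hacd1, still passed. Genes other than Psmc2 are named because they passed this test.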

How the results depend on the processing

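With the replicate number as a block 1038 genes rose and 919 fell, 907 and 773 of the main calls were kept, and among 106 named genes only Serpine2 changed its call. Replicates 1 to 3 alone gave 422 rises and replicates 4 to 6 alone 2042. Leaving out 1 library gave 773 to 1301 rises and 662 to 945 falls, with the extremes without 14 hpa replicate 6 and 14 hpa replicate 1. The count of genes whose change differed between the sets was 12, and 4 after quantile normalization and 4 with a pseudocount of 0.1, and the cause was not tested. The difference in the share of TPM on reference genes, -7.95 percentage points, did not pass the adjusted sign-flip test with the replicate block. That test gave its smallest possible p (0.0313 before adjustment) and could not have passed. In the last 200 bases the polyadenylation element was in 24.2% of genes that rose, 44.9% of those that fell and 33.2% of all, as a longer window holds more matches. Of 81 named genes past the threshold, 51 were past it in every one of the 30 alternatives that tested them. Some alternatives left out genes of low level or without a known transcript length. Pseudocount, filter, scaling, the largest row per gene, transcript length and GC left the counts of rises and falls within 1.5 times, although removing the trend on length took the respiratory chain from 18 rises to 5 and ribosomal proteins from 27 to 18. The files give no read counts, so depth limits low values to an unknown degree.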

Other observations

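Other gene families were looked at after the values were seen, so their counts are descriptions. Among all genes tested 9.47% rose and 8.03% fell. Calls with the trend on transcript length removed were not counted for these families. Of 76 tested mitochondrial ribosomal proteins 16 rose and 4 fell (27 rose without 14 hpa replicate 1), with a median log2 fold change of 0.49, among them Mrps33 from 257 ± 24.1 to 676 ± 129 TPM. Of 21 genes of mitochondrial protein import 7 rose and 1 fell, and Timm17a, a subunit of the inner membrane translocase, rose from 58.1 ± 13.5 to 369.6 ± 61.2 TPM (log2 fold change 2.67 ± 0.19, adjusted p = 4.76e-07), while Tomm34 fell from 260.1 ± 61.9 to 85.9 ± 45.5 TPM. Of 30 ubiquitin-conjugating enzymes 10 rose and 2 fell, with Ube2a from 12.1 ± 4.08 to 70.1 ± 24.5 TPM and Ube2t from 101 ± 25.4 to 342 ± 118 TPM among the rises and Ube2h from 225 ± 17.8 to 92.2 ± 15.5 TPM among the falls. Of 49 replication-dependent histone genes 14 rose and none fell, for example Hist1h4c from 7.53 ± 3.16 to 25.9 ± 6.03 TPM. These genes are near-identical copies and most of their mRNA has no poly(A) tail, so the values are uncertain.

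Of 11 receptors and Smads of BMP and activin signalling 5 fell and none rose, with a median of -0.72. Bmpr1b, a type I BMP receptor, fell from 80.0 ± 27.1 to 29.2 ± 4.38 TPM (log2 fold change -1.36 ± 0.23, adjusted p = 0.000636), the type II receptor Bmpr2 from 46.5 ± 16.7 to 20.5 ± 3.93 TPM and Smad3, which carries the activin signal to the nucleus, from 35.5 ± 4.74 to 13.5 ± 6.59 TPM. Of 33 genes of transport between endoplasmic reticulum and Golgi 7 fell and 1 rose. Kdelr2, a receptor that returns proteins to the endoplasmic reticulum, fell from 565 ± 142 to 84.9 ± 22.1 TPM (log2 fold change -2.73 ± 0.20, adjusted p = 5.48e-07), and Copz1, a coatomer subunit, rose from 34.0 ± 11.2 to 199 ± 148 TPM.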
